A study of Mus musculus with 5 samples.

Results

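The interferon-high ILC2s were the cells with the highest levels of 8 interferon-stimulated genes in the 2 libraries of cultured, tumour-associated group 2 innate lymphoid cells (ta-activated ILC2s), and there were 653 of them among 15990 cells in the whole series. They were selected on measured values: for each cell with at least 200 genes, under 5% mitochondrial counts and at least 2000 unique molecular identifiers (UMIs, which count captured RNA molecules), the UMIs of Ifit1, Ifit2, Ifit3, Isg15, Rsad2, Oasl2, Irf7 and Cxcl10 were summed per 10000 UMIs, and the top 10% of each library were taken. This gave 282 members of 2822 cells at week 2 and 371 members of 3714 cells at week 3. They were compared with the low-scoring cells, the 50% of the same library with the lowest score, 1411 and 1857 cells, and the 8 genes were left out of that comparison.

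The study sequenced lung ILC2s of wild-type C57BL/6 mice with 10x Genomics single-cell RNA libraries, 1 for each group. Naive ILC2s came from mice without a tumour, and tumour-associated (ta) ILC2s came from mice at weeks 2 and 3 after a subcutaneous implant of the TC1 lung tumour line. Ta-non-activated ILC2s were sequenced fresh. Ta-activated ILC2s were kept for a week ex vivo with IL-33 and TSLP, and the methods of the study add IL-2, so the 2 cultured libraries differ from the fresh ones in culture and in the cytokines together. Cells were gated as lineage-negative, ST2+, CD127+ and Thy1.2+, and each library pooled several mice, so differences between animals cannot be seen. The cultured libraries held 68919437 UMIs over 3579 barcodes at week 2 and 71126524 over 4405 at week 3. The fresh week 3 library stood apart in its markers: its 7 T cell markers summed to 2911 CPM and its 10 ILC2 markers to 1696 CPM, against 45.5 and 12070 CPM in fresh week 2 cells, and Il13 was at 19.6 against 8861 CPM. Week and library cannot be told apart, because each week had 1 cultured library. No p-value is given for any contrast within a library, because cells of 1 library are not replicates. Values are therefore given for both weeks, and their 95% intervals (exact Poisson for levels, exact binomial for ratios and shares) cover counting error only.

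Interferons are secreted signals that cells release on sensing viruses or other danger. Type I interferons act through the receptor subunits Ifnar1 and Ifnar2 and interferon-gamma through Ifngr1 and Ifngr2, and the receptors activate Jak kinases and through them the factors that switch on the interferon-stimulated genes. The factors bind an element with a repeated GAAA, the interferon-stimulated response element, or a palindrome of TTC and GAA, the gamma-activated sequence. In the lung, ILC2s are known as a source of IL-5 and IL-13 and respond to IL-33 and TSLP, and interferons are known to restrain ILC2s.

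The promoters of several genes of the score hold letters that match the response element. The stretches before the start site are given for 4 genes of the rule and for Gbp2, a gene outside it that was among the 15 with the highest ratio, because these genes carry the pattern described below. They are RefSeq sequences on GRCm38.p6, written 5′ to 3′ on the strand of the gene and ending at the base before the start, and capitals mark matches to GAAANNGAAA on either strand.
Ifit1, chr19:34640769-34640888, plus strand: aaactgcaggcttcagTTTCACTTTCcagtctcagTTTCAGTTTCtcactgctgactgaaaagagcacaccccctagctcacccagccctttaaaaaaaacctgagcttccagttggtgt
Ifit3, chr19:34583363-34583528, plus strand: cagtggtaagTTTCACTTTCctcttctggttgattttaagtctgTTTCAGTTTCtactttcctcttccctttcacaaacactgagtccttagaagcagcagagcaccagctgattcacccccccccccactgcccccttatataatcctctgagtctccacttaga
Isg15, chr4:156200819-156200938, minus strand: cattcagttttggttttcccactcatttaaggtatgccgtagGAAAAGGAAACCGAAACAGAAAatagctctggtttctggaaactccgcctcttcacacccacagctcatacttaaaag
Cxcl10, chr5:92348890-92349112, minus strand: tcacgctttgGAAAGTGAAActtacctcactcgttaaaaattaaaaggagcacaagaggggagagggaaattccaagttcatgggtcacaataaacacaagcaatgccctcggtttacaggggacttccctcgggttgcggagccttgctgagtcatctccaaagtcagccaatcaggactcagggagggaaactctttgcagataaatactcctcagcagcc
Gbp2, chr3:142620543-142620662, plus strand: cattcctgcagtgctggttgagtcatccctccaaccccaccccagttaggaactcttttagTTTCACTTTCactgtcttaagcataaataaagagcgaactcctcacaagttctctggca
Ifit1 held 2 matches, which began 104 and 85 bases before the start, and Ifit3 held 2, which began 156 and 122 bases before it. Isg15 held 3 overlapping matches between 78 and 57 bases before the start (chromosome 4), Cxcl10 held 1 that began 213 bases before it, and Gbp2 held 1 that began 59 bases before it. In windows from 250 bases before to 50 after the start, 5 of the 8 genes of the rule had a match. The windows of Ifit2, Oasl2 and Irf7 had none, which says only that these letters do not stand in that window. Of all 32851 windows in the table, 3.44% held a match. A match is a description of the letters and not a bound site.

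The score had no gap at the lowest member, so the rule cut through a range of scores there. No clustering was run here, so whether some members form a separate cluster was not tested. At week 2 the lowest member scored 59.2 UMIs per 10000 and the first cell outside scored 59.1, with a library median of 15.2 and a highest value of 363. At week 3 these values were 104.2, 103.98, 33.5 and 571. Of the members, 57 at week 2 and 71 at week 3 lay less than 10% above the lowest member, and 71 and 95 cells outside lay less than 10% below it. A cell at the week 2 limit would not have been a member at week 3: 972 week 3 cells (26.2%) reached the week 2 limit, and 57 week 2 cells (2.02%) reached the week 3 limit.

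**Figure D1:**
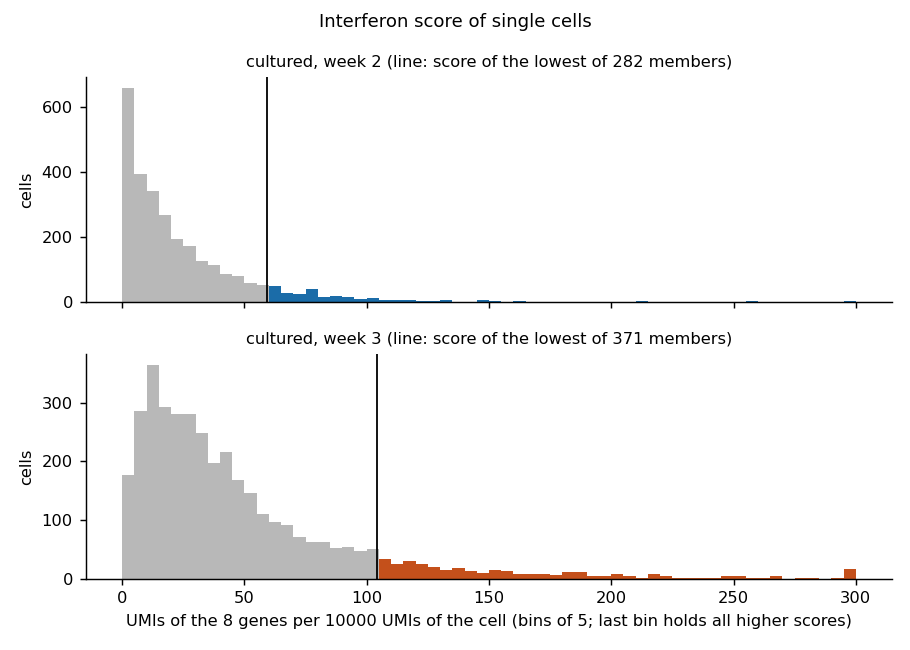
Number of cells (y axis) by score, the UMIs of the 8 genes per 10000 UMIs of the cell (x axis), in the cultured libraries of week 2 (top) and week 3 (bottom). The line marks the lowest member, at 59.2 and 104.2, coloured bins lie wholly above it, the last bin holds all scores of 295 and above, and the counts fall off with no gap at the line.

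Members had fewer UMIs per cell than the cells they were compared with. The median was 7974.5 UMIs in members and 20100 in the low-scoring cells at week 2, and 9758 and 15130 at week 3. At week 2 members were 24.2% of the 20% of cells with the fewest UMIs (95% interval 20.8 to 28.0) and 1.06% of the 20% with the most (0.391 to 2.30). At week 3 these shares were 17.1% (14.45 to 19.996) and 3.504% (2.30 to 5.09). The median mitochondrial share was 2.51% in members and 3.42% in the low-scoring cells at week 2, and 2.80% and 3.45% at week 3. The comparison was therefore repeated with members and low-scoring cells taken within each of 5 bins of the UMI count (each holding 20% of the cells), and values from that comparison are given for the main lists and for many of the genes named.

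The 8 genes that chose the members are given as a description. All levels are summed UMIs of a group of cells, scaled to a common total for every group (CPM). Isg15, a ubiquitin-like modifier, was at 4324 CPM in members and 313 CPM in the low-scoring cells at week 2, and at 5264 and 797 CPM at week 3. Ifit1, an RNA-binding antiviral protein, was at 1911 and 53.0 CPM at week 2 and at 3235 and 224 CPM at week 3. Cxcl10, a chemokine that attracts cells with the receptor Cxcr3, was at 786 and 6.64 CPM at week 2 and at 3927 and 43.1 CPM at week 3. Irf7, a transcription factor of the interferon loop, had the smallest ratio of the 8, with 714 and 98.2 CPM at week 2 and 768 and 307 CPM at week 3.

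A gene read in cells that the other 7 genes chose gives a value its own UMIs did not fix. Chosen that way, Cxcl10 was 24.6 times as high in members as in the low-scoring cells at week 2 (22.2 to 27.2) and 35.3 times at week 3 (33.9 to 36.8). Ifit1 was 21.5 times (20.5 to 22.6) and 10.4 times as high (10.1 to 10.7), Isg15 5.71 times (5.56 to 5.86) and 4.61 times (4.53 to 4.69), and Irf7 5.90 times (5.59 to 6.23) and 2.29 times (2.20 to 2.38). Read that way, the summed level of each of the 8 genes was higher in members in both libraries. A summed level does not say that each member was high in that gene. The choice by 7 genes kept from 74.8% (Isg15 left out, week 2) to 98.7% (Oasl2 left out, week 3) of the members, so these values are a description. The 8 genes still share each cell's UMI total.

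The genes were not spread alike over the members. In cells thinned at random to 2000 UMIs, Isg15 was seen in 99.3% of week 2 members and 45.4% of the low-scoring cells, and in 99.7% and 71.2% at week 3. Cxcl10 was seen in 13.8% of week 2 members (10.0 to 18.4) and 1.06% of the low-scoring cells (0.596 to 1.75), against 72.2% (67.4 to 76.7) and 5.65% (4.65 to 6.80) at week 3. At week 2 the 10% of members richest in Cxcl10 held 94.8% of the thinned Cxcl10 UMIs of all members, and at week 3 they held 37.9%. Cxcl10 was thus seen in few thinned members at week 2 and in most at week 3. It is part of the score, with 8.54% and 24.3% of the members' UMIs of the 8 genes, so the rule itself affects these shares. A cell with no UMI of it after thinning may still hold its RNA. Free RNA in the droplets can add such UMIs, and no cell type that lacks these genes was at hand to measure it.

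**Figure D2:**
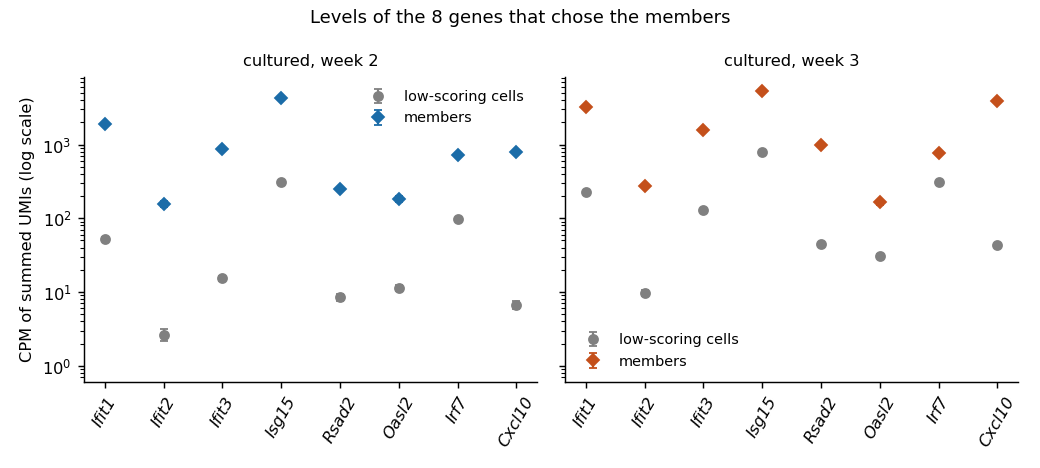
CPM of summed UMIs on a log scale (y axis) of the 8 genes of the rule (x axis) in members and in the low-scoring cells, at week 2 (left) and week 3 (right), with 95% Poisson intervals that are mostly smaller than the points. Members lie above the low-scoring cells at every gene, which the rule favours, from 714 against 98.2 CPM for Irf7 to 786 against 6.64 CPM for Cxcl10 at week 2.

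Cells with such scores were rare in the fresh libraries. All cells with 2000 or more UMIs were thinned to 2000, and 10 or more UMIs of the 8 genes were required. This was met by 1 of 6150 naive cells (0.0163%, 95% interval 0.000412 to 0.0906), 5 of 1809 fresh week 2 cells (0.276%, 0.0898 to 0.644) and 10 of 1495 fresh week 3 cells (0.669%, 0.321 to 1.23). In the fresh week 3 library 742 cells (49.6%) held UMIs of 2 or more T cell markers after thinning, against 0.553% of fresh week 2 cells, and 8 of the 10 were among them. Without such cells 2 of 753 were left (0.266%, 0.0322 to 0.956). In culture it was met by 478 of 2822 week 2 cells (16.9%, 15.6 to 18.4) and 1333 of 3714 week 3 cells (35.9%, 34.4 to 37.5), and without cells of 2 or more T cell markers by 17.1% and 36.01%. Ifit1 was at 1.65 CPM in naive cells, 1.51 and 10.4 CPM in fresh cells of weeks 2 and 3, and 267 and 706 CPM in the cultured cells. Cxcl10 did not follow that order as closely, with 24.2, 43.6 and 20.8 CPM in the naive, fresh week 2 and fresh week 3 cells and 57.9 and 427 CPM in culture. In both weeks the cultured library was the higher one for these 2 genes. The naive matrix was made with another Cell Ranger version, and its part in these values was not tested.

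Outside the 8 genes, 6837 genes with at least 10 CPM in both cultured libraries were compared. A gene was counted where its log2 ratio, log2((members + 1) / (low-scoring cells + 1)) of CPM, was past 2-fold in the same direction in both libraries. By that count 133 genes were higher in members (1.95% of those compared) and 242 were lower (3.54%). At week 2 alone 3.82% were higher and 5.91% lower, and at week 3 alone 2.21% were higher and 4.78% lower. No gene was past 2-fold in opposite directions. The median log2 ratio of all genes was -0.04 at week 2 and -0.08 at week 3, and 78.0% of genes had the same sign in both. The filter counts the UMIs of the members themselves, which favours genes found mostly in members: 8 of the 133 genes, 5 of them among the 15 described next, were below 10 CPM over the cells outside the members at week 2. With the filter set on the cells outside the members, 6847 genes were compared, and 125 were higher and 251 lower. Of the 133 higher genes, 56 (42.1%) were in 7 lists given below, which held 106 (1.55%) of all genes compared. These lists are interferon genes, interferon signalling, ISG15 conjugation, nucleic acid sensors, antiviral effectors, interferon-gamma targets and MHC class I.

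CPM is relative to the RNA captured from a cell. Counted as UMIs per cell with no scaling, the median log2 ratio of all genes was -1.39 at week 2 and -0.85 at week 3, because members had fewer UMIs in all, and 21 genes (0.307%) were past 2-fold higher and 2340 (34.2%) past 2-fold lower in both libraries. A sign on that scale therefore reads against those medians and not against 0, and where it differs from the sign in CPM the shift of all genes is part of it. Of the 133 genes, 100 had more UMIs per cell in members in both weeks. Smaller cells, less RNA and lower capture cannot be told apart here, so every level below is a share of captured RNA unless UMIs per cell are named.

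The 15 genes with the highest ratio were Trim30c, Ifit1bl1, Ccrl2, Ifit3b, Cmpk2, Oasl1, Iigp1, Usp18, Ms4a4c, AW011738, Ifi208, Mx1, Gbp2, Ifi214 and Slfn5. Trim30c, of the Trim family of ubiquitin ligases, was at 299 CPM in members and 4.28 CPM in the low-scoring cells at week 2, and at 209 and 4.30 CPM at week 3. This is 69.9 times (59.1 to 83.1) and 48.7 times as high (41.0 to 58.0), and a UMI of it was in 62.1% and 59.3% of members. Its log2 ratios of 5.83 and 5.31 became 3.76 and 4.72 within bins of the UMI count. Ifit1bl1, in the Ifit cluster, was at 107 and 1.09 CPM at week 2 and at 272 and 16.01 CPM at week 3, and its log2 ratios of 5.69 and 4.003 became 3.82 and 3.53 within the bins. Its level in the week 2 cells outside the members was 8.15 CPM, and Oasl1, AW011738, Ifi214 and Ccrl2 were also below 10 CPM there, from 8.04 to 9.97 CPM. It and Ifit3b lie on chromosome 19 among Ifit1, Ifit2 and Ifit3, between 34550694 and 34650009 on GRCm38, so 2 of the leading genes outside the rule are neighbours and relatives of genes inside it. AW011738 begins at 156203304 on chromosome 4, next to Isg15, which ends at 156200818. How reads shared by such near copies (also the Trim30, Ms4a4, Ifi200, Gbp and H2 families) were split was not checked.

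The other leading genes act at several steps of the response. Usp18, which removes Isg15 from proteins and blocks the type I receptor, was at 122 CPM in members and 12.3 CPM in the low-scoring cells at week 2 (9.88 times, 8.59 to 11.4), and at 307 and 50.4 CPM at week 3 (6.09 times, 5.67 to 6.54). Mx1, an antiviral GTPase, was 5.37 times as high at week 2 (4.60 to 6.25) and 10.1 times at week 3 (9.25 to 10.99). Cmpk2, a nucleotide kinase next to Rsad2 on chromosome 12, was 7.92 times (6.82 to 9.18) and 8.85 times as high (8.08 to 9.70). Ccrl2, a chemerin-binding receptor, was 12.1 times (9.85 to 14.8) and 13.2 times as high (11.3 to 15.3). The genes named here were chosen for their ratios, so these values are a description.

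**Figure D3:**
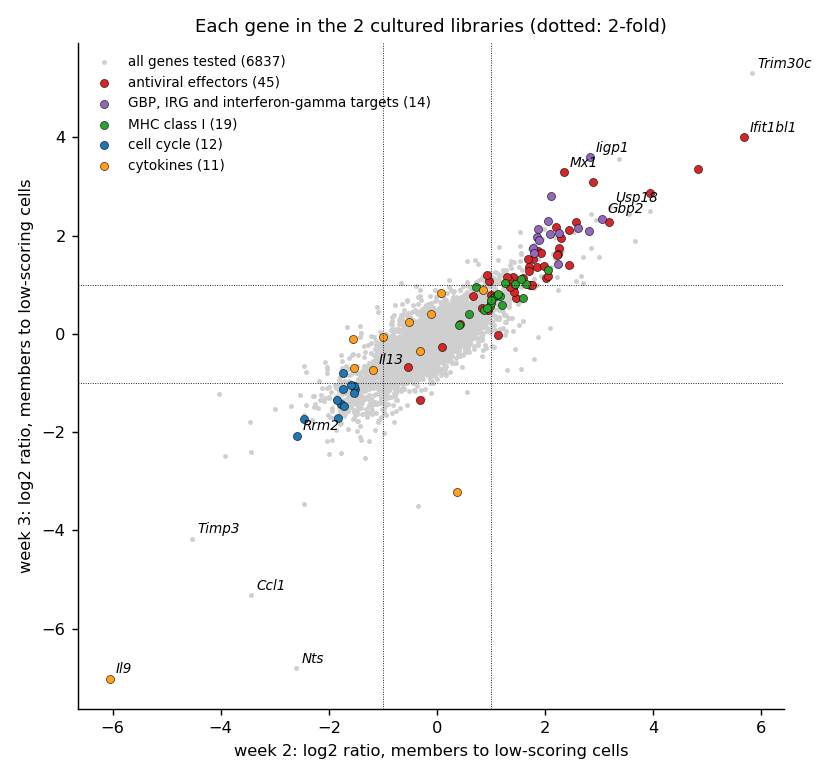
Log2 ratio of members to the low-scoring cells at week 2 (x axis) and week 3 (y axis) for each of 6837 genes (grey), with 5 gene lists coloured and 2-fold marked by dotted lines. Antiviral, GBP and IRG genes lie at the upper right, cell cycle genes at the lower left, and Il9, Nts, Ccl1 and Timp3 far below; all values are shares of captured RNA, and counted as UMIs per cell the median of all genes shifts to -1.39 and -0.85.

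Antiviral effectors, the proteins that block virus entry, translation and assembly, were the largest of the interferon lists. Of 52 listed genes 45 were compared, and 28 were past 2-fold higher in both libraries, none lower and 17 neither, against 1.95% of all genes. With the filter set on the cells outside the members, which Ifit1bl1 and Oasl1 did not pass, 26 of 43 were higher. Their median log2 ratios were 1.72 at week 2 and 1.197 at week 3. Ifi203, a DNA-binding protein of the Ifi200 family, was at 1016 and 185 CPM at week 2 and at 1158 and 436 CPM at week 3. Isg20, an exonuclease, was at 794 and 168 CPM and at 964 and 313 CPM. Not every gene of the list followed. Ifi27l2a was at 2507 and 1145 CPM at week 2, where its log2 ratio was -0.28 as UMIs per cell, and at 3059 and 3104 CPM at week 3. Ifitm2 was at 305 and 378 CPM and at 81.0 and 208 CPM. Within bins of the UMI count 29 of the 45 were past 2-fold higher, against 1.46% of all genes. Their medians as UMIs per cell were 0.33 and 0.41, and 7 were past 2-fold higher and 3 lower.

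ISG15 conjugation is the attachment of Isg15 to proteins. Of its 4 genes, Usp18, the ligase Herc6 and the conjugating enzyme Ube2l6 were past 2-fold higher in both libraries, against 1.95% of all genes. Within bins of the UMI count 3 of the 4 were, against 1.46% of all genes, with medians of 1.84 and 1.51. Herc6 was at 254 and 53.9 CPM at week 2 and at 325 and 101 CPM at week 3. The activating enzyme Uba7 was 2.83 times as high at week 2 (2.42 to 3.29) and 1.97 times at week 3 (1.75 to 2.21), just short of the 2-fold limit at week 3.

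GBP and IRG GTPases, which attack the vacuoles of intracellular microbes, and other interferon-gamma targets were higher in members where they passed the filter on low levels. Of 21 listed genes 19 were in the files and 14 passed that filter. These 14 were past 2-fold higher in both libraries, against 1.95% of all genes, with median log2 ratios of 2.10 and 2.08. Gbp2 was at 744 and 88.6 CPM at week 2 (8.40 times, 7.95 to 8.86) and at 289 and 56.1 CPM at week 3 (5.15 times, 4.79 to 5.53). Iigp1 was at 1177 and 164 CPM (7.19 times, 6.89 to 7.49) and at 439 and 35.4 CPM (12.4 times, 11.5 to 13.3). Cd274, the ligand of PD-1, was at 220 and 35.2 CPM (6.24 times, 5.67 to 6.86) and at 145 and 31.9 CPM (4.55 times, 4.12 to 5.02). The same 14 of 14 were counted within bins of the UMI count, against 1.46% of all genes, and the medians there were 1.71 and 1.93. Counted as UMIs per cell, 4 were past 2-fold, and the medians were 0.71 and 1.29. Of the listed genes that did not pass the filter, Cxcl9 was at 5.87 CPM in week 2 members and had no UMI in week 3 members. Gbp10 was at 43.8 and 3.35 CPM at week 2 and at 11.4 and 1.28 CPM at week 3, and Tgtp1 at 70.7 and 7.60 CPM and at 29.8 and 2.69 CPM. Ido1, an enzyme that degrades tryptophan, went the other way, at 6.56 CPM in members and 13.7 CPM in the low-scoring cells at week 2 (2.10 times lower, 1.33 to 3.51) and at 1.42 and 3.97 CPM at week 3 (2.80 times lower, 1.25 to 7.74).

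Interferon signalling genes had smaller ratios. Of 16 compared, 4 were past 2-fold higher in both libraries, Stat2, Irf1 and Ifngr1 among them, and none was lower, against 1.95% and 3.54% of all genes, with list medians of 0.91 and 0.62. As UMIs per cell the medians were -0.47 and -0.17, which is 0.93 and 0.68 above the median of all genes on that scale. Of the 16 genes 3 were past 2-fold higher within bins of the UMI count, against 1.46% of all genes, and Ifngr1, a chain of the interferon-gamma receptor, went from log2 ratios of 1.78 and 1.04 to 0.68 and 0.69. Irf1, a factor early in the interferon-gamma response, was at 611 and 166 CPM and at 276 and 95.2 CPM. The kinases Jak1, Jak2 and Tyk2 stayed within 2-fold in both weeks. Of 8 nucleic acid sensors, the helicases Ifih1 and Dhx58 were past 2-fold higher, as were 2 within the bins, and Ifih1 was at 74.5 and 15.6 CPM at week 2 and at 149 and 50.2 CPM at week 3.

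RNA of type I interferons was near 0. None of the 21 interferon genes reached 10 CPM in both libraries. Ifnb1 had no UMI in members or low-scoring cells of either week, and of the 13 Ifna genes listed only Ifna16 had 1 UMI, in a week 3 member. With 2898409 and 4225051 UMIs in the members, 0 UMIs allow up to 1.27 and 0.873 CPM. Ifng was at 43.1 CPM in week 2 members (35.9 to 51.4) and 6.56 CPM in the low-scoring cells (5.78 to 7.42), but its 125 UMIs came from 3 of 282 members and 79 of them from 1 cell. At week 3 no Ifng UMI was found in any of 3714 cells.

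MHC class I and peptide loading genes were higher in members as a share of RNA. All 19 had log2 ratios above 0 in both libraries, where 3181 and 2791 of all 6837 genes did at weeks 2 and 3. The list medians were 1.12 and 0.75. Of the 19, 5 (H2-Q4, H2-Q6, H2-T22, Tapbpl and Psmb10) were past 2-fold in both, against 1.95% of all genes. H2-K1, a class I heavy chain, was at 5529 and 2748 CPM at week 2 (2.01 times, 1.98 to 2.05) and at 4874 and 3173 CPM at week 3 (1.54 times, 1.51 to 1.56). B2m, the light chain, was 1.33 times as high (1.30 to 1.35) and 1.13 times (1.11 to 1.15). As UMIs per cell H2-K1 was at 56.8 in members against 75.1 in the low-scoring cells at week 2 and at 55.5 against 62.9 at week 3. The list medians on that scale were -0.29 and -0.05, which is 1.11 and 0.80 above the median of all genes. Only 2 of the 19 were past 2-fold in both within bins of the UMI count, against 1.46% of all genes, with medians of 0.78 and 0.65. Of the MHC class II pathway 5 genes were compared. Only Ctss, a protease of the endosome, was past 2-fold higher, and within bins of the UMI count none was.

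**Figure D4:**
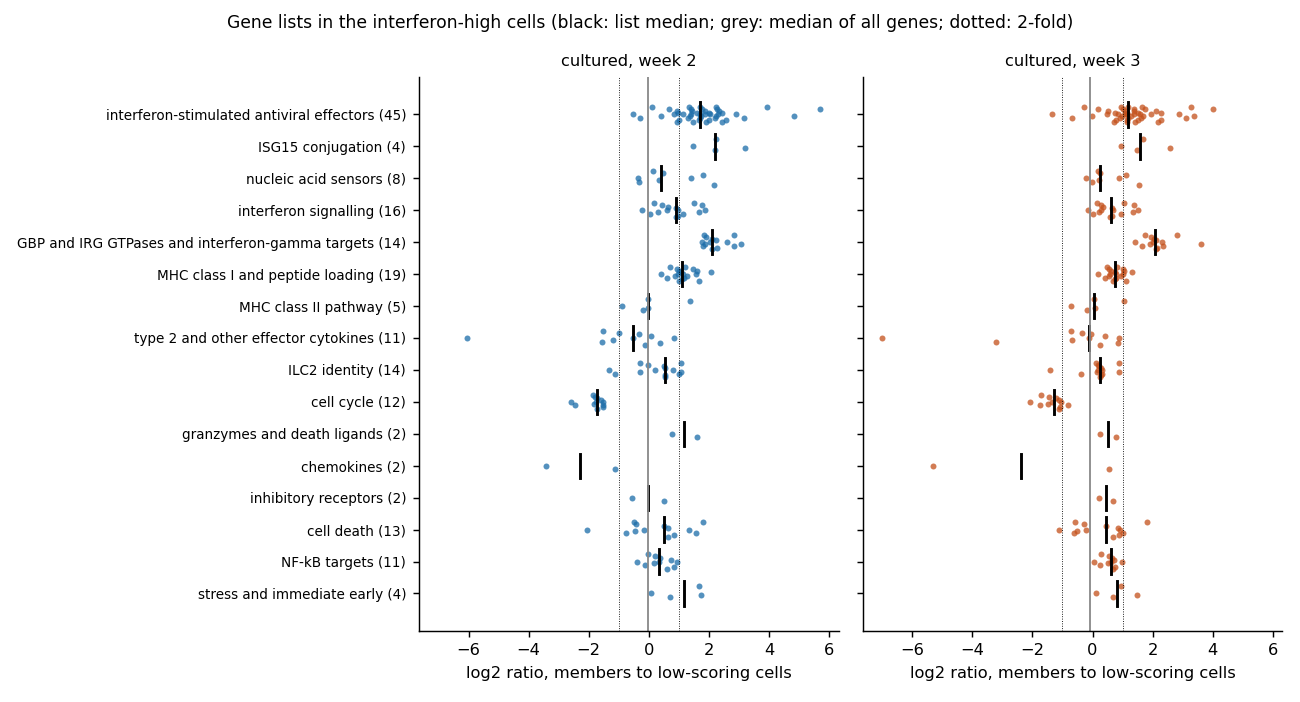
Log2 ratio of members to the low-scoring cells (x axis) at week 2 (left) and week 3 (right) for each compared gene (point) of 16 lists (y axis, number compared in brackets), with list medians in black and the median of all genes in grey. The medians of the GBP and IRG list lie at 2.10 and 2.08 and those of the cell cycle list at -1.74 and -1.28; counted as UMIs per cell the MHC class I medians of 1.12 and 0.75 are -0.29 and -0.05, where that of all genes is -1.39 and -0.85.

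The members held the markers of ILC2s. Gata3, the factor that sets ILC2 fate, was at 712 CPM in members and 497 CPM in the low-scoring cells at week 2 and at 998 and 813 CPM at week 3. Il7r, the CD127 chain of the sort gate, was at 942 and 452 CPM and at 995 and 541 CPM. Both were lower in members at week 2 as UMIs per cell, with 7.32 against 13.6 for Gata3 and a log2 ratio of -0.35 for Il7r, where the median of all genes was -1.39. At week 3 Gata3 was again lower on that scale, with 11.4 against 16.1, and Il7r was at 11.3 against 10.7. The median log2 ratio of all genes was -0.85 there. The summed level of 10 ILC2 markers was 7879 CPM in members and 10150 CPM in the low-scoring cells at week 2 and 10080 and 10840 CPM at week 3, all 10 were detected, and Il13 contributed most. Of 14 identity genes compared, 13 stayed within 2-fold in at least one library. So did 6462 of all 6837 genes, so this count does not set the list apart. Il1rl1, which encodes the ST2 chain of the gate, was at 41.1 and 50.9 CPM at week 2 and at 161 and 86.7 CPM at week 3 (1.86 times as high, 1.71 to 2.02). Thy1, another surface marker of the gate, was past 2-fold lower, at 71.4 and 157 CPM at week 2 and 56.3 and 152 CPM at week 3. Within bins of the UMI count its log2 ratios of -1.13 and -1.41 became -0.62 and -0.82.

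Il13 and Il5, the cytokines ILC2s are best known for, were lower in members in both libraries. Il13 was at 1800 and 4067 CPM at week 2 (2.26 times lower, 2.20 to 2.32) and at 2949 and 4890 CPM at week 3 (1.66 times lower, 1.63 to 1.69). In thinned cells it was seen in 53.9% of week 2 members and 80.9% of the low-scoring cells, and in 82.2% and 85.6% at week 3. The 10 richest members held 51.4% of the members' Il13 UMIs at week 2 and 20.4% at week 3. Il5, which feeds eosinophils, was 2.90 times lower (2.75 to 3.05) and 1.62 times lower (1.56 to 1.68). Within bins of the UMI count the log2 ratios of Il13 went from -1.18 and -0.73 to -0.62 and -0.33, and those of Il5 from -1.53 and -0.69 to -0.53 and -0.42. With cycling cells left out as well they were -0.91 and -0.66 for Il13 and -0.98 and -0.73 for Il5. Calca and Areg were higher as a share of RNA but, at week 2, lower as UMIs per cell. Calca, which encodes the neuropeptide CGRP, was 1.81 times as high (1.66 to 1.97) and 1.85 times as high (1.77 to 1.94), and Areg, a growth factor of tissue repair, was 1.05 times (1.02 to 1.09) and 1.79 times as high (1.73 to 1.85). As UMIs per cell the log2 ratios of Calca were -0.55 and 0.09 and those of Areg -1.33 and 0.04. In CPM, Calca went from log2 ratios of 0.85 and 0.89 to 0.75 and 0.15, and Areg from 0.08 and 0.84 to 0.25 and 0.82, within bins of the UMI count without cycling cells. Of 11 cytokine genes compared, 3 at week 2 and 4 at week 3 had log2 ratios above 0, where 3181 and 2791 of all 6837 genes did. Only Il9 was past 2-fold in both libraries, and it was lower, as were 3.54% of all genes. Il22, a cytokine that acts on epithelium, was at 6.90 and 5.14 CPM at week 2 and at 22.7 and 219 CPM at week 3. The week 3 levels came from few cells. The 10 richest low-scoring cells held 80.3% of their 8059 Il22 UMIs, and a single member held 71 of the members' 96.

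The 4 lowest genes, Il9, Timp3, Ccl1 and Nts, came from few cells at week 2. Il9, a cytokine of mast cells and of ILC2 survival, had 2 UMIs in week 2 members (0.69 CPM) and 110 CPM in the low-scoring cells, and 11 UMIs (2.60 CPM) and 466 CPM at week 3. The ratios are 160 times lower (44.2 to 1321) and 179 times lower (99.97 to 358). But 49 of 1411 low-scoring cells at week 2 and 118 of 1857 at week 3 had any Il9 UMI, and the 10 richest of them held 87.7% and 84.5%. By 10 bins of the score, Il9 at week 2 was highest in the bin just under the members, at 464 CPM. Within bins of the UMI count its week 2 log2 ratio was 2.00 and its week 3 ratio -1.60. Ccl1, a chemokine for Ccr8, had 811 UMIs in the week 2 low-scoring cells, 743 of them in 1 cell. Nts, the neurotensin gene, had 96.7% of its UMIs in the week 2 low-scoring cells in 10 cells, and Timp3, a protease inhibitor, had 69.3%. At week 3 the 10 richest low-scoring cells held 72.8% of the Ccl1 UMIs, 81.1% of those of Nts and 32.2% of those of Timp3. The log2 ratios of Ccl1 within bins of the UMI count were -4.06 and -4.76 and those of Nts -5.07 and -4.19, while those of Timp3 were 0.29 and -3.33.

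At week 2 the other low genes were spread more widely, with a UMI in 10.7% of the low-scoring cells or more. At week 3 Ermn fell short of that share, with a UMI in 134 of 1857 low-scoring cells, and Uchl1 had one in 259. Timp3, described above, had one in 354. Selenom, a selenoprotein of the endoplasmic reticulum, had a UMI in 39 of 282 week 2 members and 727 of 1411 low-scoring cells, and was at 18.6 and 298 CPM at week 2 and 13.5 and 80.4 CPM at week 3. Tfrc, the transferrin receptor, was at 7.94 and 34.6 CPM and at 12.3 and 71.3 CPM. Rrm2, a subunit of the enzyme that makes deoxyribonucleotides, was at 23.1 and 143 CPM and at 19.4 and 85.0 CPM, and Cdc45, a replication factor, at 4.49 and 21.6 CPM and at 4.02 and 21.8 CPM. Ermn and Uchl1 complete the 10, each with 10 or fewer UMIs in the members of either week. The log2 ratio of Selenom went from -3.93 to -1.17 at week 2 and from -2.49 to -1.92 at week 3 within bins of the UMI count. Those of Rrm2 were -1.66 and -1.72 there, those of Cdc45 -1.10 and -1.45, those of Tfrc -1.42 and -2.39, those of Ermn -1.99 and -2.89 and those of Uchl1 -1.36 and -1.40.

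Genes of the cell cycle were lower in members. Of 12 compared, 11 were past 2-fold lower in both libraries against 3.54% of all genes, with medians of -1.74 and -1.28. Top2a, which untangles DNA in mitosis, was at 95.2 and 321 CPM at week 2 and 172 and 377 CPM at week 3, and Mki67, the Ki-67 antigen, at 54.2 and 182 CPM and at 88.5 and 247 CPM. In thinned cells, 2 or more of the 12 genes were seen in 5.67% of week 2 members (3.28 to 9.05) and 33.0% of the low-scoring cells (30.5 to 35.5), and in 6.74% (4.41 to 9.79) and 25.8% (23.8 to 27.8) at week 3. The low UMI count of the members moves with this. Within bins of the UMI count 3 of the 12 were past 2-fold lower, against 1.29% of all genes, and the medians were -0.38 and -1.03. The log2 ratios of Top2a went from -1.74 and -1.13 to -0.42 and -0.78, and those of Mki67 from -1.73 and -1.47 to -0.38 and -1.03.

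The number of lower genes moved more with depth and cycling than that of higher genes. Within bins of the UMI count 100 genes were higher and 88 lower in members, and 97 and 80 of these were among the 133 and the 242. With cycling cells left out as well, 99 were higher and 40 lower, and 94 and 34 were shared. In those comparisons the median UMIs of members and low-scoring cells were 14220 and 14040 at week 2 and 12480 and 12660 at week 3 with cycling cells, and 11220 and 11770 and 11460 and 11610 without them.

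The other lists held few called genes, to be read against 1.95% of all genes higher and 3.54% lower. Of 13 cell death genes, Casp4, an inflammatory caspase, and Daxx, a nuclear chaperone, were past 2-fold higher and none was past 2-fold lower in both weeks, and 1 was higher within bins of the UMI count. Daxx was 3.62 times as high (3.15 to 4.15) and 3.59 times (3.25 to 3.97). None of 11 NF-kB targets was past 2-fold in both libraries, or within the bins, with medians of 0.35 and 0.62 that were 0.28 and 0.44 within the bins. As UMIs per cell these medians were -1.04 and -0.18, which is 0.36 and 0.68 above that of all genes. Of 4 stress genes, Atf3 was past 2-fold higher, at 35.5 and 10.51 CPM and at 43.3 and 14.8 CPM, and 1 gene of the list was so within the bins. Granzyme B (Gzmb) was 3.02 times as high in members at week 2 (2.95 to 3.10) and 1.199 times at week 3 (1.14 to 1.27). The 10 richest members held 58.0% of the members' Gzmb UMIs at week 2 and 76.7% at week 3. A Gzmb UMI was in 110 of 282 members and 399 of 1411 low-scoring cells at week 2, and in 55 of 371 and 307 of 1857 at week 3. In thinned cells these shares were 30.1% and 16.2% at week 2 and 8.63% and 9.80% at week 3, so the week 3 share was no higher in members. Its log2 ratios of 1.59 and 0.26 became 2.09 and -0.05 within bins of the UMI count. Of 2 chemokines compared, Ccl1 was past 2-fold lower, and of 2 inhibitory receptors neither was.

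Defining markers of most other cell types were at or near 0, and lists that held a marker above 10 CPM are given with their levels. Lyz2 and C1qa of macrophages, Siglech of plasmacytoid dendritic cells, Cd8a of T cells, Ms4a1 of B cells, Cdh5 of endothelium and Sftpc of epithelium were at 0 in members of both weeks. The summed level of 5 macrophage markers was 2.42 CPM in members and 2.46 CPM in the low-scoring cells at week 2 and 1.66 and 2.61 CPM at week 3, and that of 5 dendritic cell markers was 0 and 1.63 CPM and 1.89 and 3.78 CPM. The list of 4 plasmacytoid markers stood at 1920 and 709 CPM and at 1784 and 1084 CPM, nearly all of it from Bst2, itself an interferon-stimulated gene. At week 2 the 6 NK and ILC1 markers summed to 73.1 CPM in members and 22.1 CPM in the low-scoring cells, led by Ifng, with Tbx21 and Eomes at 0 in members, and at week 3 to 0 and 0.218 CPM. Of the same list, Ncr1 was at 5.87 and 1.56 CPM (3.77 times, 2.06 to 6.54) and Klrd1 at 23.8 and 13.4 CPM (1.78 times, 1.37 to 2.29) at week 2. The 7 T cell markers were at 290 and 208 CPM at week 2 and 53.7 and 119 CPM at week 3, nearly all Cd3g. The 3 epithelial markers, led by Epcam, were at 67.3 and 9.60 CPM at week 2 and 1.66 and 1.96 CPM at week 3. Ly6g of granulocytes was at 24.5 and 4.62 CPM at week 2, with S100a8 and S100a9 at 0 in members, and at 0 in both groups at week 3. The 4 mast cell and basophil markers summed to 152 and 137 CPM at week 2, led by Mcpt8 at 121 and 126 CPM, and to 58.2 and 25.6 CPM at week 3, led by Kit. Kit, the stem cell factor receptor, was past 2-fold higher in both libraries, at 30.7 and 10.51 CPM and at 57.3 and 24.8 CPM, while Cpa3 and Fcer1a were at 0 in members of both weeks. Hba-a1, a haemoglobin chain, was at 24.2 and 40.4 CPM at week 2 and 14.2 and 25.5 CPM at week 3, with Hbb-bs at 0 in members. Cd79b, a B cell receptor chain, was at 10.4 and 14.6 CPM and at 10.2 and 12.2 CPM. Pecam1 of endothelium was at 5.18 and 11.2 CPM and at 11.6 and 10.2 CPM. The ILC3 list was led by Il22, whose levels are given above. The part of these markers in the results was not tested.

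Across 10 bins of the score with about equal numbers of cells, the levels of Iigp1 and Usp18 stood higher step by step. Iigp1 was higher in every bin than in the one below it, from 62.0 to 1177 CPM at week 2 and from 11.9 to 439 CPM at week 3. Usp18 did the same, from 2.39 to 122 CPM and from 30.2 to 307 CPM. Gbp2 and Cd274 each had 1 step down at week 2, from 79.9 to 75.2 CPM between the second and the third bin and from 53.5 to 46.7 CPM between the fourth and the fifth. These points share the score, and the median UMI count ran against it, from 34402 in the lowest bin to 7974.5 in the highest at week 2 and from 21650 to 9758 at week 3. Il13 went from 4472 to 1800 CPM at week 2 and from 5356 to 2949 CPM at week 3.

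**Figure D5:**
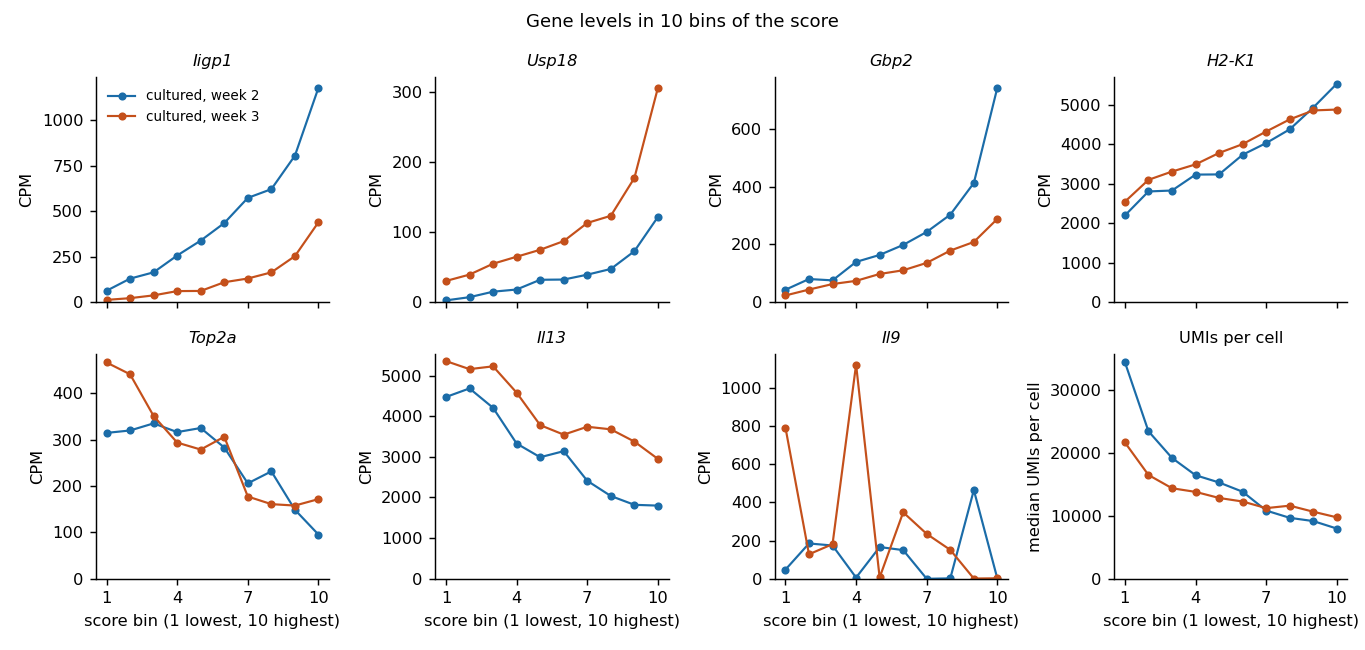
Levels in CPM (y axis) of 7 genes, and the median UMIs per cell (last panel), in 10 bins of the score from lowest to highest (x axis), at week 2 and week 3. Iigp1, Usp18 and H2-K1 climb at every step and Gbp2 with 1 dip at week 2, Il13 and Top2a decline with small reversals, Il9 jumps between bins with a peak of 464 CPM just under the highest bin at week 2, and UMIs per cell decline from 34402 to 7974.5 at week 2.

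Matches to the response element also stood in the promoters of genes the rule had not used. Of the 133 higher genes 107 had a promoter window in the table, and 34.6% of these held GAAANNGAAA on either strand. The 133 include 8 genes that passed the filter on low levels only with the members counted. Among these, Ifit1bl1 and Ifi214 held a match and Oasl1, Ccrl2 and AW011738 did not. The share without the 8 genes was not taken. Of the 242 lower genes 199 had a window and 4.02% held it, and among all genes compared 4.17% of 5446 did. It was not limited to genes higher in members, and stood in 11 of 20 windows of the interferon genes, whose RNA was near 0 apart from Ifng. By list it also stood in 9 of 11 GBP, IRG and interferon-gamma target genes, 20 of 40 antiviral effectors, 3 of 8 nucleic acid sensors, 5 of 16 MHC class I genes, 3 of 17 interferon signalling genes, 0 of 3 ISG15 conjugation genes and 0 of 11 cell cycle genes. The palindrome TTCNNNGAA, whose matches may overlap the other, stood in 14.95% of the higher genes' windows, 8.04% of the lower genes' and 8.15% of all genes compared, and in 6 of the 11 GBP, IRG and interferon-gamma target genes, 7 of 17 interferon signalling genes and 10 of 20 interferon genes. Neighbouring family members share promoter sequence, so these genes are not independent.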

How the data were processed

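Single-cell RNA was measured in 5 libraries of mouse lung ILC2s, each pooled from several mice. The authors deposited whole-number UMI counts per gene and cell; per the submitters' processing notes these came from Cell Ranger 3.0.2 and Seurat 3 on GRCm38, and the naive matrix header names Cell Ranger 6.0.0. Here, the counts were summed over groups of cells and scaled to CPM, with Python 3.11.15, numpy 2.4.6, scipy 1.17.1 and pandas 2.3.3. Cells needed at least 200 genes, under 5% mitochondrial counts and 2000 UMIs, and genes needed 10 CPM over all cells of both cultured libraries. A pseudocount of 1 CPM was used, and a gene was counted past 2-fold in the same direction in both libraries. No test was run, since each group had 1 library and the members were chosen on the outcome. No doublet caller was run here. The cultured libraries shared 2 barcodes. Scripts were tested on simulated data.

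Named were the 8 genes of the rule, the 15 highest and 10 lowest genes by the smaller log2 ratio of both libraries, and the most abundant and the past 2-fold genes of each list. Some results of the rule are not reported here. Uba7, Cxcl9, Tyk2, Ifna16 and some other list genes were named after their values were seen. The members and the lists were chosen with earlier results of these data known. Alternatives varied the share of cells, the comparison cells, depth, score, scale, pseudocount and filters. Those chosen after seeing the data were the bins of the UMI count without cycling cells, leaving out Gzmc-high cells, each week alone, UMIs per cell, the filter on cells outside the members, and leaving out cells with 2 or more T cell markers.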

Additional observations from a re-analysis of the deposited data

How the results depend on the processing

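Members and low-scoring cells were compared within each library, so each ratio already holds the library fixed. No paired test was run across the libraries, because the members were chosen on the outcome, and no result came from a test. With 1 library per condition, leaving out a replicate was not possible either. Where a value moved, the cause was not tested, unless the setting itself takes away genes or cells.

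The number of genes past 2-fold higher, 133, became 74 against all other cells, 60 with a filter of 50 CPM, 261 at week 2 alone and 21 as UMIs per cell. As shares of all genes compared, 2.24% were higher with the top 5%, 1.48% with the top 20% and 1.08% against all other cells. This share was 1.46% within bins of the UMI count, 1.8% without cycling cells, 1.5% with both and 1.83% with log-normalized means. It was 1.35% with a pseudocount of 10 CPM, 2.44% with the 50 CPM filter and 0.307% as UMIs per cell. The number lower, 242, became 133 against all other cells, 88 within 5 bins of the UMI count, 79 without cycling cells, 40 with both, 77 with a pseudocount of 10 CPM, 466 and 47 with filters of 1 and 50 CPM, 404 at week 2 alone and 2340 as UMIs per cell. The share lower was 2.76% with the top 5%, 2.95% with the top 20%, 1.95% against all other cells and 34.2% as UMIs per cell. It was 1.29% within the bins, 1.2% without cycling cells, 0.605% with both, 2.65% on thinned cells and 2.41% with log-normalized means.

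Antiviral effectors higher went from 28 to 14 with the 50 CPM filter and to 7 as UMIs per cell, where 3 were lower. GBP, IRG and interferon-gamma targets higher went from 14 to 8 and 4 in the same settings, and ISG15 conjugation genes from 3 to 1 in both. The 50 CPM filter left 28, 8 and 1 genes of these lists and 2 sensors to compare, so 8 of 8 and 1 of 1 were still past 2-fold. UMIs per cell put the median of all genes at -1.39 and -0.85, so fewer genes can pass upward and more downward. Interferon signalling genes higher went from 4 to 0 as UMIs per cell. Nucleic acid sensors higher went from 2 to 1 against all other cells and with a pseudocount of 10 CPM, and to 0 with the 50 CPM filter and as UMIs per cell. MHC class I genes higher went from 5 to 3 with the mean of log-normalized values and a pseudocount of 10 CPM, to 2 with the top 20%, within UMI bins, without cycling cells, without the 5% of cells with most UMIs and as a mean over cells, to 1 within UMI bins without cycling cells, and to 0 against all other cells and as UMIs per cell. MHC class II genes higher went from 1 to 0 in 11 settings, and 1 was lower as UMIs per cell.

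Cell cycle genes lower went from 11 to 7 on thinned cells and with log-normalized means, 6 against all other cells, 4 with the top 5%, 3 within UMI bins, 2 without cycling cells and 0 with both. Without cycling cells 6 of the 12 genes passed the filter, and those cells were defined by these 12 genes, so that loss follows from the setting. Cytokines lower went from 1 to 0 with the top 20%, within UMI bins with or without cycling cells and on thinned cells. They went to 2 against all other cells and to 4 of 11 as UMIs per cell. In that last setting 34.2% of all genes were lower, which also applies to the lists that follow. ILC2 identity genes lower went from 1 to 0 with the top 20%, within UMI bins with or without cycling cells and with log-normalized means, and to 2 as UMIs per cell. Cell death genes higher went from 2 to 4 with the top 5%, to 1 in 11 settings and to 0 as UMIs per cell, and those lower from 0 to 1 without Cxcl10 and as a mean over cells and to 6 as UMIs per cell. Stress genes higher went from 1 to 2 with the top 5%, a mitochondrial limit of 10% and a random 50% of UMIs, and to 0 with the top 20%, log-normalized means, no cycling cells, the mean over cells, the 50 CPM filter and UMIs per cell.

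At week 2 some single genes changed direction. The log2 ratio of Il9 became 1.19 with the top 20%, 2.00 within UMI bins, 2.19 on thinned cells and 3.08 within UMI bins without cycling cells. Timp3 became 0.29 within UMI bins and 0.54 within UMI bins without cycling cells. Ccl1 became 0.50 without the 5% of cells with most UMIs and 0.60 without Gzmc-high cells, and Nts 0.37 without the 5%. As UMIs per cell H2-K1 became -0.40, Il7r -0.35 and Ifi27l2a -0.28. Of genes with smaller ratios in CPM, Gata3 became -0.89, Rora -0.86, Calca -0.55 and Areg -1.33 on that scale. At week 3 Gata3 became -0.50, H2-K1 -0.18 and Bst2 -0.07, among others. That setting lowers the median of all genes, as given above.

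The share of cells with 10 or more UMIs of the 8 genes fell to 0% in naive cells when 11 were required, and from 0.669% to 0.266% in fresh week 3 cells without cells of 2 or more T cell markers. In the cultured libraries it was 13.7% and 32.4% with no thinning, 19.8% and 39.9% at 9 UMIs and 14.1% and 31.8% at 11.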
